A study of Mus musculus with 40 samples.

Results

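The comparison described here sets polyadenylated RNA of mouse hearts that overexpress the microRNA miR-378a against that of non-transgenic hearts, both from animals without pressure overload. It rests on 6 of the 40 libraries of the series, chosen by their labels: 3 transgenic (TG) sham hearts and 3 non-transgenic (ntg) sham hearts. All mice were of the FVB/N strain and are labelled as male and 12 weeks old. TG mice carried a transgene for miR-378a, whose promoter and founder line the labels do not give, and ntg mice carried none. The tissue was a coronal slice of the heart with the right ventricle removed, so RNA of muscle, vessel, connective tissue and fat cells entered each library together. The labels call both groups sham, but the column names of the series tables read as if no operation was done. The other libraries are mRNA of 7 TG and 7 ntg hearts after 2 weeks of transverse aortic constriction (TAC), an operation that overloads the left ventricle, and RNA bound to Ago2 (RISC) from the same 20 hearts.

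MicroRNAs guide the protein Ago2 to messenger RNAs that carry a match to the seed of the microRNA, and such messages are translated less or decay sooner. A change of the level of one microRNA therefore reaches some messages directly and many others through the proteins those messages encode. miR-378a is transcribed from an intron of Ppargc1b, a coactivator of mitochondrial genes, and is abundant in heart and skeletal muscle, where it has been studied for its links to fatty acid use and to growth signals that pass through the Ras pathway.

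The 3 TG sham libraries held 11454634 to 18063408 gene counts, and the 3 ntg sham libraries held 9980462 to 12001110. The precursor gene Mir378 had 0 counts in all 6, which allows up to 3 counts a library, so the microRNA itself was not measured. Libraries of one genotype were more alike (Pearson r of log2 levels across genes 0.983 to 0.989) than libraries of different genotypes (0.964 to 0.976), a description across genes. Markers of cardiac muscle were abundant in all 6, as the tissue label has it. The RNA of both genotypes went against the sex label: Xist, the RNA of the silenced X chromosome of female cells, stood at 117 to 142 CPM (counts scaled to the library total) in TG and at 126 to 137 CPM in ntg sham hearts, and summed Y-linked genes reached 0.881 CPM in TG and 4.88 CPM in ntg hearts. The ntg sham libraries also held more fat RNA, and the level of atrial genes varied from heart to heart within both genotypes. Summed atrial marker genes stood at 2250, 1130 and 543 CPM in TG and at 2740, 386 and 6180 CPM in ntg hearts, with 0 of the 7 called as different. In a slice of tissue, fewer cells of a type and less RNA per cell cannot be told apart.

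At rest, the hearts with the miR-378a transgene differed from ntg hearts in many genes, mostly by small steps. Of 14141 tested genes 1297 were higher and 1330 lower in TG hearts, which is 18.6% called, 9.17% higher and 9.41% lower, at an adjusted p under 0.05 (edgeR, quasi-likelihood F test, Benjamini-Hochberg over all tested genes). Without ntg 1 the number higher was 839 and the number lower 942. Among the called genes, 765 of those that were higher (59%) and 743 of those that were lower (55.9%) differed by less than 1.5-fold, while 256 were higher and 211 lower by 2-fold or more. The median log2 fold change was 0.52 over the higher and -0.54 over the lower genes, against -0.01 over all tested genes. In 1258 of the higher genes the lowest TG heart lay above the highest ntg heart, and in 1278 of the lower genes the highest TG heart lay below the lowest ntg heart; over all tested genes such gaps were found in 17% upward and 17.6% downward. The folds of called genes were larger at low level. Below a mean of 1 TPM (a level per transcript length) the called genes had medians of 1.7 upward and -1.37 downward, and above 100 TPM medians of 0.4 and -0.5. Of the genes below 1 TPM 8.5% were called, against 24% above 100 TPM. A scarce gene needs a larger fold to be called, so these medians do not show where most large folds lie. Each library carries its own animal code, and the p values rest on the spread within the 4 groups of mRNA libraries, TAC hearts included.

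**Figure D1:**
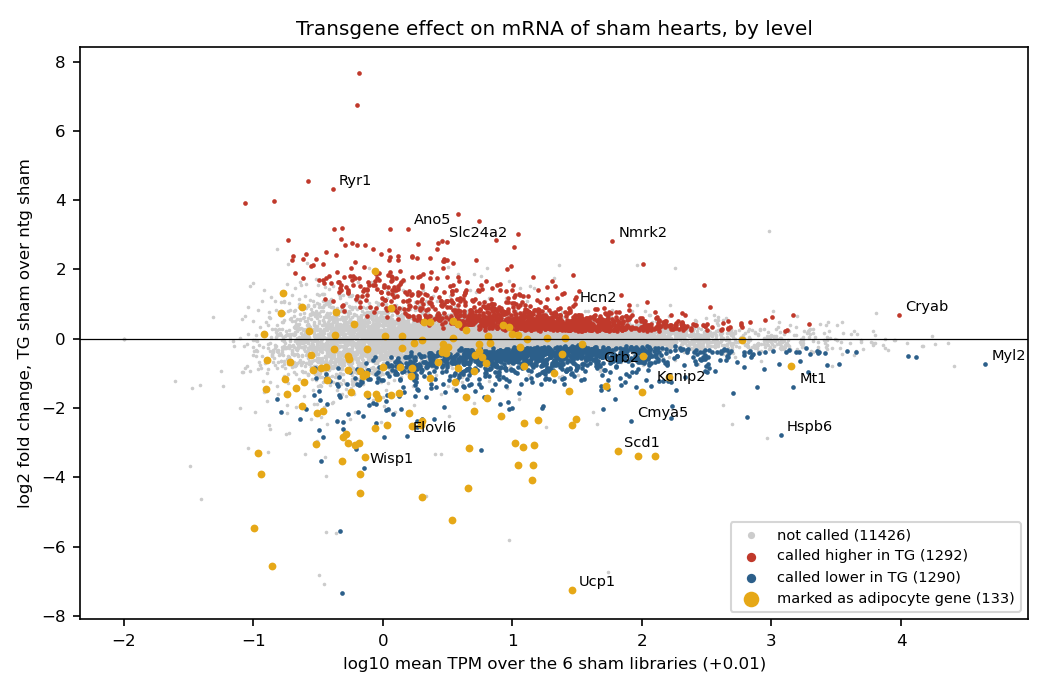
Log2 fold change of TG over ntg sham hearts (vertical axis) against the log10 mean TPM over the 6 sham libraries (horizontal axis), one point a tested gene. Red points were called higher and blue points lower in TG, grey points were not called, and gold points are the 133 genes marked as adipocyte genes, most of which lie below 0. The largest folds lie at low levels, and most called genes above 100 TPM lie near 0.

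Fat RNA was higher in ntg sham hearts, and genes that move with it were marked so that the lists below can be read with and without them. The mean log2 CPM of 10 adipocyte genes was 2.27 ± 0.631 in TG and 5.34 ± 0.179 in ntg sham hearts (SD, n = 3 each). Mice of the TAC groups, which take no part in the sham contrast, stood at 2.13 ± 0.892 in TG and 2.62 ± 1.26 in ntg hearts (n = 7 each). A gene was marked if it followed this level among the 14 TAC hearts within genotypes (r of at least 0.7) or belongs to the lists of white and brown fat cell markers. The mark fell on 133 tested genes, of which 40 were called lower and 5 higher, so marked genes make up 3.01% of all genes called lower. Among 21 adipocyte markers 13 were called lower, 0 higher and 8 were not called, beside 9.41% lower over all tested genes. All 21 had no overlap between the groups, a gap found downward in 17.6% of all tested genes. The high fat RNA of the ntg sham hearts was known beforehand, so these counts describe it and do not test it. The calls of Adipoq and Cidec were lost when any library was left out. Retn, which encodes the fat cell hormone resistin, stood at 2.09, 2.47 and 0.539 CPM in TG hearts against 11.9, 17.6 and 13.7 CPM in ntg hearts. No TG heart reached the lowest ntg heart, at a log2 fold change of -3.02 with SE 0.78 and adjusted p = 0.012. With the adipocyte level of each library as a covariate, which the genotypes nearly fix in the sham hearts, 952 genes were called in place of 2627. The median ratio of the folds of called genes was then 0.975 and that of their standard errors 1.38. Of the calls without it, 893 were made with it in the same direction.

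**Figure D2:**
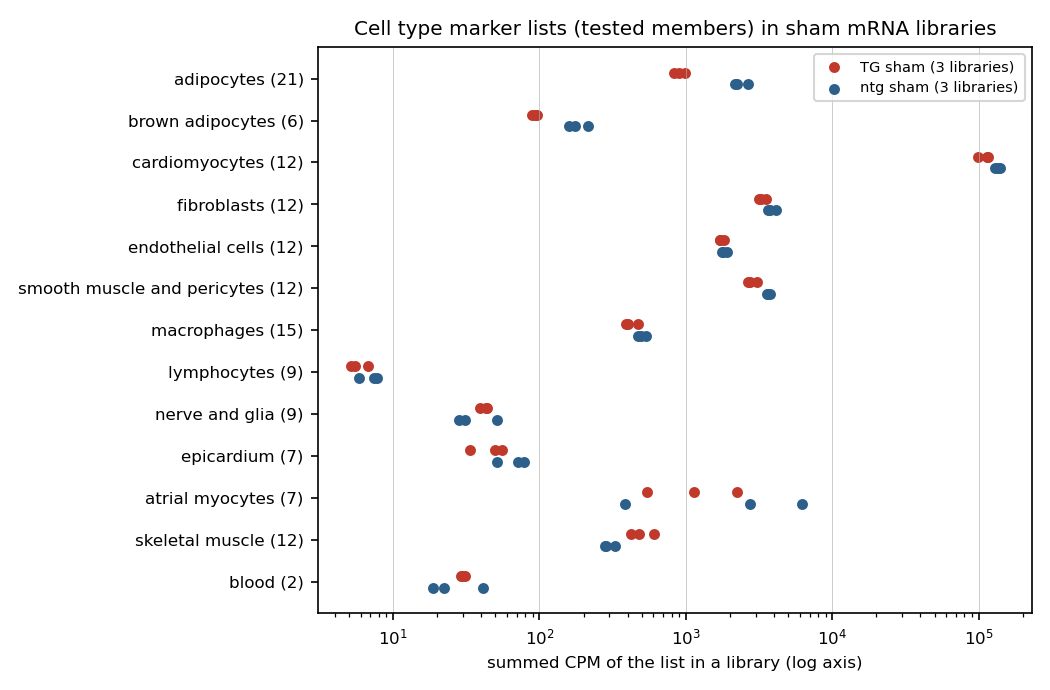
Summed CPM of the tested members of 13 marker lists of cell types in each sham mRNA library on a log axis, TG (red) above ntg (blue), with the number of tested members in brackets. The 3 TG hearts lie apart from and below the 3 ntg hearts for adipocytes (835 to 985 against 2160 to 2650 CPM), and above them for skeletal muscle genes (424 to 604 against 279 to 328 CPM), a sum that Myl1 carries, while atrial genes spread over both groups.

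Markers of the other cell types are to be read beside all tested genes, of which 9.41% were called lower and 18.6% in either direction. The summed level of 12 fibroblast genes was 3150 to 3510 CPM in TG and 3630 to 4160 CPM in ntg hearts, with 3 called lower. Macrophage genes summed to 388 to 471 CPM in TG and 472 to 538 CPM in ntg hearts, with 5 of 15 lower. Endothelial genes summed to 1700 to 1830 CPM in TG and 1770 to 1920 CPM in ntg hearts, with 2 of 12 lower (16.7% called). Of these 2, Flt1 lost its call when any library was left out. Smooth muscle and pericyte genes summed to 2660 to 3060 CPM in TG and 3600 to 3740 CPM in ntg hearts, with 2 of 12 lower (16.7% called). The clearest among those was Acta2, the actin of smooth muscle, at 149, 140 and 139 CPM in TG hearts against 376, 323 and 301 CPM in ntg hearts (log2 fold change -1.22, SE 0.21, adjusted p = 0.000494). The cardiomyocyte list itself summed to 99400 to 115000 CPM in TG and 129000 to 139000 CPM in ntg hearts, with 7 of 12 lower and 1 higher. Of 9 lymphocyte, 7 epicardial and 2 blood genes tested, 0 were called, and the 4 hemoglobin genes of that list are given with 0 counts in all 6 libraries.

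Beside the 18.6% called over all genes, some lists of cellular pathways held many changed members and some few. Others lay near that share, such as glycolysis and glucose use (20%), cytosolic ribosomal proteins (17.5%) and autophagy and the lysosome (17.1%). The largest shares of lower genes were found for lipid droplets and lipid synthesis (16 of 33), fatty acid oxidation (16 of 47), complement and acute phase proteins (7 of 22), intercalated discs (5 of 16) and the sarcomere (13 of 47). The largest shares of higher genes were found for histones (8 of 26), heat shock proteins (8 of 29), Wnt and Hippo signalling (6 of 30) and the proteasome (8 of 43). Few members were called in the citric acid cycle (1 higher and 0 lower of 18), respiratory complex I (0 and 2 of 36), complexes III to V (2 and 3 of 43), the circadian clock (1 and 1 of 21), immediate early genes (1 and 1 of 25), the interferon response (3 and 0 of 40), folding in the endoplasmic reticulum (0 and 2 of 33) and collagens (2 and 1 of 38). Of 22 genes of cardiac stress and the fetal heart 1 was higher, Thbs4, and 1 lower, Acta1. Over whole classes, 32 of 380 transcription factor genes were higher and 38 lower (18.4% called), and 25 of 370 receptor genes higher and 52 lower (20.8%). Of 445 genes of secreted proteins 15 were higher and 51 lower (14.8%), and of 173 channel and transporter genes 17 were higher and 20 lower (21.4%).

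**Figure D3:**
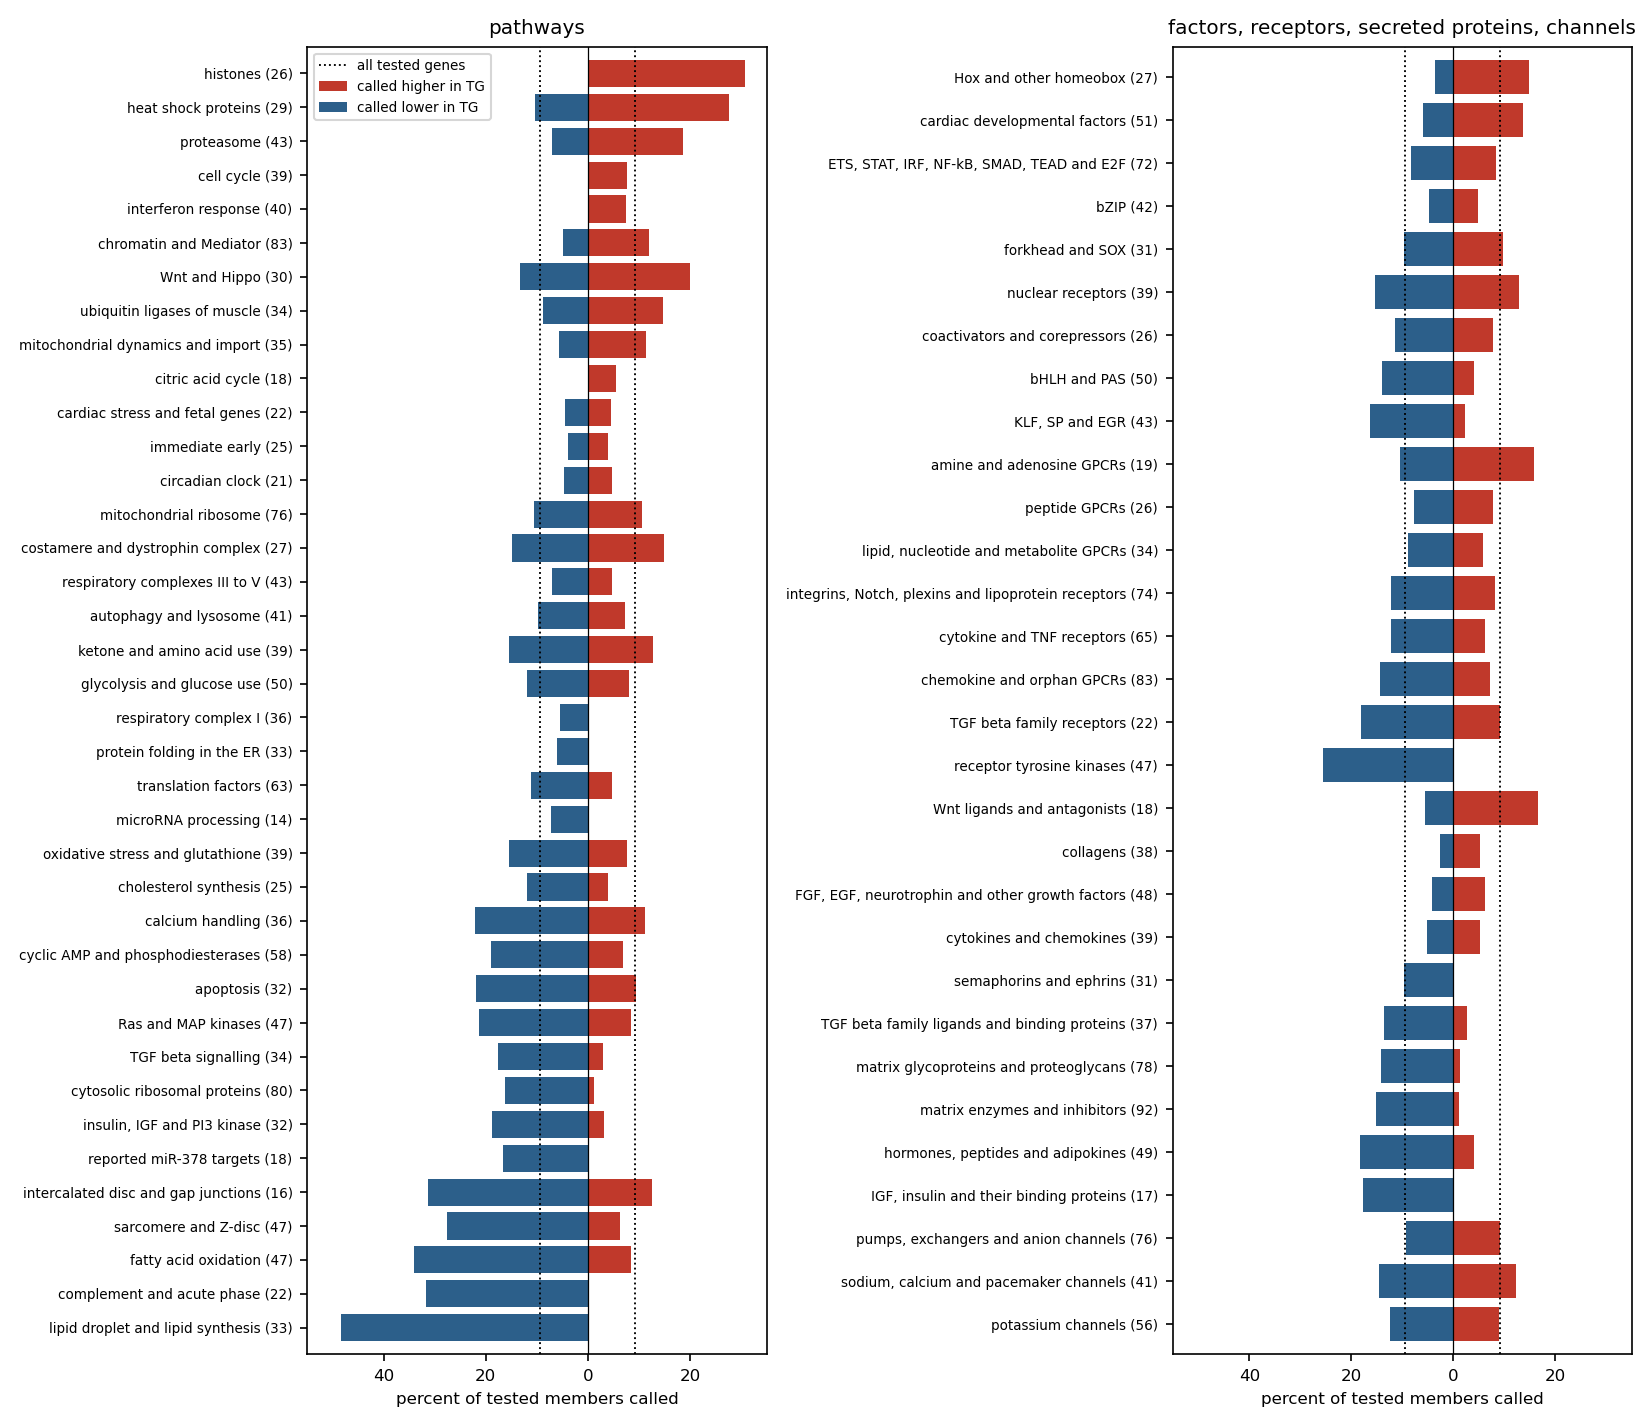
Share of the tested members of each gene list called higher (red, to the right) or lower (blue, to the left) in TG than in ntg sham hearts, with the number tested in brackets. Dotted lines mark the shares over all tested genes, 9.17% higher and 9.41% lower; lipid synthesis reaches furthest to the left and histones furthest to the right.

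Of 20 skeletal muscle markers 12 had enough counts to test, with a median log2 fold change of 0.16. Of the 12, 8 were not called and 4 rose, beside 9.17% higher over all genes: Ryr1, the calcium release channel of skeletal muscle, Myl1, an essential myosin light chain of fast fibres, Cacna1s, the voltage sensor of skeletal muscle, and Myh8, the perinatal myosin heavy chain. Myl1 (chromosome 1, 66924296 to 66945056, minus strand, mm10) stood at 265, 363 and 216 CPM in TG hearts against 101, 64 and 126 CPM in ntg hearts. The lowest TG heart lay above the highest ntg heart, with a fold change of 1.54 on the log2 scale (SE 0.33, adjusted p = 0.00349). Myl1 carries the summed level of the list: the other 11 tested members summed to 214, 240 and 209 CPM in TG and to 183, 215 and 202 CPM in ntg hearts, which overlap. Cacna1s stood at 31, 26.8 and 27.9 CPM in TG hearts and at 16.6, 13.9 and 15 CPM in ntg hearts, again without overlap (log2 fold change 0.91, SE 0.17, adjusted p = 0.000702). Myh8 was scarce, at 1.17 to 1.65 CPM in TG and 0.108 to 0.48 CPM in ntg hearts (log2 fold change 2.45, SE 0.56, adjusted p = 0.00326). The fast-fibre troponin genes Tnni2 (-1.04, adjusted p = 0.198) and Tnnt3 (0.77, adjusted p = 0.484) and the fast calcium pump gene Atp2a1 (-0.65, adjusted p = 0.232) did not pass the test. Myod1 and Myog, the factors that found the skeletal muscle lineage, were too low to test in either group.

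Other large increases were found in genes with little known role in the heart. Amtn, which encodes amelotin of tooth enamel, stood at 4.95, 3.52 and 3.5 CPM in TG hearts against 0.096, 0.755 and 0.181 CPM in ntg hearts (log2 fold change 3.59, SE 0.51, adjusted p = 2.1e-05). Cda, the cytidine deaminase of nucleotide salvage, was at 7.64 to 9.58 CPM in TG and 0.755 to 1.54 CPM in ntg hearts (3.01, SE 0.38). Pcbd1, a cofactor-recycling enzyme, was at 5.07 to 6.56 CPM in TG and 0.324 to 1.34 CPM in ntg hearts (2.86, SE 0.31). St8sia5, a sialyltransferase, rose by 3.18 (SE 0.55), and Sv2b, a synaptic vesicle protein, rose by 3.17 (SE 0.43). None of these 5 overlapped between the groups. Nmrk2, a kinase of muscle that makes the NAD precursor nicotinamide mononucleotide and was chosen after its values were seen, stood at 100, 97.5 and 124 CPM in TG hearts against 13.6, 17.1 and 15 CPM in ntg hearts. No heart of one group reached the other, with a fold change of 2.82 on the log2 scale (SE 0.24, adjusted p = 1.18e-07), and 2.04 (SE 0.14) in TAC hearts.

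The largest decreases outside fat genes touched unrelated proteins. Cyp2b10, a cytochrome P450 of drug metabolism, stood at 1.21, 1.34 and 1.17 CPM in TG hearts against 13.7, 10 and 10.9 CPM in ntg hearts (log2 fold change -3.21, SE 0.38, adjusted p = 3.94e-06). Aqp4, a water channel, was at 0.493 to 1.17 CPM in TG and 4.21 to 6.51 CPM in ntg hearts (-2.84, SE 0.37). Dbh, the enzyme that makes noradrenaline from dopamine, was at 0.359 to 0.916 CPM in TG and 3.78 to 4.7 CPM in ntg hearts (-2.54, SE 0.38, adjusted p = 4.85e-05). Dbh was the 1 of 9 tested nerve and glia genes called lower. Uchl1, a ubiquitin hydrolase of neurons that other cells make too, was the 1 called higher, at 32.4, 28.1 and 29.4 CPM in TG hearts against 9.02, 6.15 and 9.85 CPM in ntg hearts (1.84, SE 0.18, adjusted p = 2.33e-07). Also without overlap were Cdh22, which encodes a cadherin (-3.17, SE 0.58), and Scd4, which encodes a fatty acid desaturase (-2.38, SE 0.33). All genes named from Amtn to Scd4, Nmrk2 aside, were also called when any one library was left out and with the adipocyte or the atrial level as a covariate.

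Messages of the contractile apparatus were lower in TG hearts in a part of the list, and a few were higher. Of 47 tested sarcomere and Z-disc genes 13 were lower and 3 higher, with a median log2 fold change of -0.11. That is 34% called, beside 18.6% of all genes. Fhl2, a LIM protein that links the sarcomere to signalling and to transcription, stood at 563, 629 and 516 CPM in TG hearts against 905, 1180 and 1030 CPM in ntg hearts. Every TG heart lay below every ntg heart, and the log2 fold change was -0.87 (SE 0.12, adjusted p = 1.86e-05). Ttn, which encodes the giant spring protein titin, was at 6990, 7720 and 6700 CPM in TG hearts against 13400, 11300 and 10700 CPM in ntg hearts (-0.72, SE 0.13, adjusted p = 0.000288). Myl2, the regulatory light chain of the ventricle, showed the largest fall in TPM among called genes without the adipocyte mark. Its mean was 35100 TPM in TG hearts against 53900 TPM in ntg hearts (-0.73, SE 0.16, adjusted p = 0.0023). Among those that rose, Mybpc3, the cardiac myosin binding protein C, stood at 5060, 5530 and 5340 CPM in TG hearts against 4070, 3990 and 3880 CPM in ntg hearts (0.42, SE 0.09, adjusted p = 0.00194). Myh6, the adult cardiac myosin heavy chain, was at -0.13 (adjusted p = 0.45) and Tnnt2, cardiac troponin T, at 0.07 (adjusted p = 0.787). Acta1, the skeletal actin that the stressed heart makes, fell by 1.56 (SE 0.41, adjusted p = 0.0138), but the adjusted p was 0.0659 without TG 3 and it was not called without ntg 3 or with the adipocyte covariate either.

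At the joints between muscle cells and at the membrane skeleton the members went both ways. Of 16 intercalated disc and gap junction genes 5 were lower and 2 higher, 43.8% called beside 18.6% of all genes. Dsg2, a desmosomal cadherin of the heart, stood at 31.3, 37.1 and 33.3 CPM in TG hearts against 67.9, 75.8 and 65.9 CPM in ntg hearts (log2 fold change -1.04, SE 0.1, adjusted p = 1.22e-07). The adherens junction genes Cdh2 (0.38, SE 0.08, adjusted p = 0.00196) and Ctnnb1, beta-catenin (0.36, SE 0.08, adjusted p = 0.00176), were higher in all 3 TG hearts than in any ntg heart. Gja5, the connexin of atria and conduction tissue, stood at 8.2, 6.62 and 8.18 CPM in TG hearts against 25.2, 9.07 and 47 CPM in ntg hearts. The ntg hearts were ordered as their atrial markers are, and the TG hearts were not. The fold change of Gja5, -1.83 (SE 0.44, adjusted p = 0.00767), went to -1.17 (adjusted p = 0.0617) without ntg 3, and it was not called with the adipocyte covariate or in the 6 sham libraries alone. With the atrial level as a covariate it was at -1.36 (adjusted p = 0.014). Of 27 costamere and dystrophin complex genes 4 were lower and 4 higher (29.6% called). Itgb1bp2, which encodes the muscle stress sensor melusin, fell by 0.77 (SE 0.08, adjusted p = 7.27e-07), and Dag1, dystroglycan, rose by 0.37 (SE 0.09, adjusted p = 0.00697).

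Calcium handling and ion channel genes held both strong decreases and strong increases. Of 36 calcium handling genes 8 were lower and 4 higher (33.3% called), and of 56 potassium channel genes 7 were lower and 5 higher (21.4%). Of 41 sodium, calcium and pacemaker channel genes 6 were lower and 5 higher (26.8%), beside 18.6% called over all genes. Cacna1g, a T-type calcium channel of pacemaking, stood at 21.9, 13.4 and 17.6 CPM in TG hearts against 42.8, 59.4 and 47 CPM in ntg hearts. The groups did not overlap, and the log2 fold change was -1.49 (SE 0.17, adjusted p = 2.6e-06). Kcnv2, a modifier subunit of potassium channels, was at 7.6 to 8.72 CPM in TG and 15.1 to 18 CPM in ntg hearts (-1.01, SE 0.24, adjusted p = 0.00441). Atp2a2, the calcium pump of the sarcoplasmic reticulum, was at -0.41 (SE 0.11, adjusted p = 0.00873), a call lost with the adipocyte covariate, and Casq2, which stores calcium there, at -0.73 (SE 0.09, adjusted p = 7.71e-06).

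Upward, Camk2b, a calcium and calmodulin dependent kinase, stood at 56.2, 53.7 and 47.9 CPM in TG hearts against 16.1, 14 and 16.2 CPM in ntg hearts, a fold change of 1.77 on the log2 scale (SE 0.13, adjusted p = 1.15e-09). Hcn2, a channel of the pacemaker current, stood at 73.7, 66.8 and 72.3 CPM in TG hearts against 33.7, 37 and 39.6 CPM in ntg hearts (0.95, SE 0.15, adjusted p = 7.41e-05). It was higher in every TG heart than in any ntg heart. Kcnj12, an inward rectifier that holds the resting potential, rose by 0.54 (SE 0.1, adjusted p = 0.000465). Slc24a2, a sodium and calcium exchanger that also moves potassium, stood at 28, 35.8 and 27.7 CPM in TG hearts against 4.03, 3.13 and 5.6 CPM in ntg hearts (2.82, SE 0.25). The water channel gene Aqp8 was at 11.1 to 16.9 CPM in TG and 2.27 to 2.49 CPM in ntg hearts (2.64, SE 0.27), and the membrane protein gene Ano5 at 8.09 to 16 CPM in TG and 0.723 to 2.16 CPM in ntg hearts (3.18, SE 0.29).

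**Figure D4:**
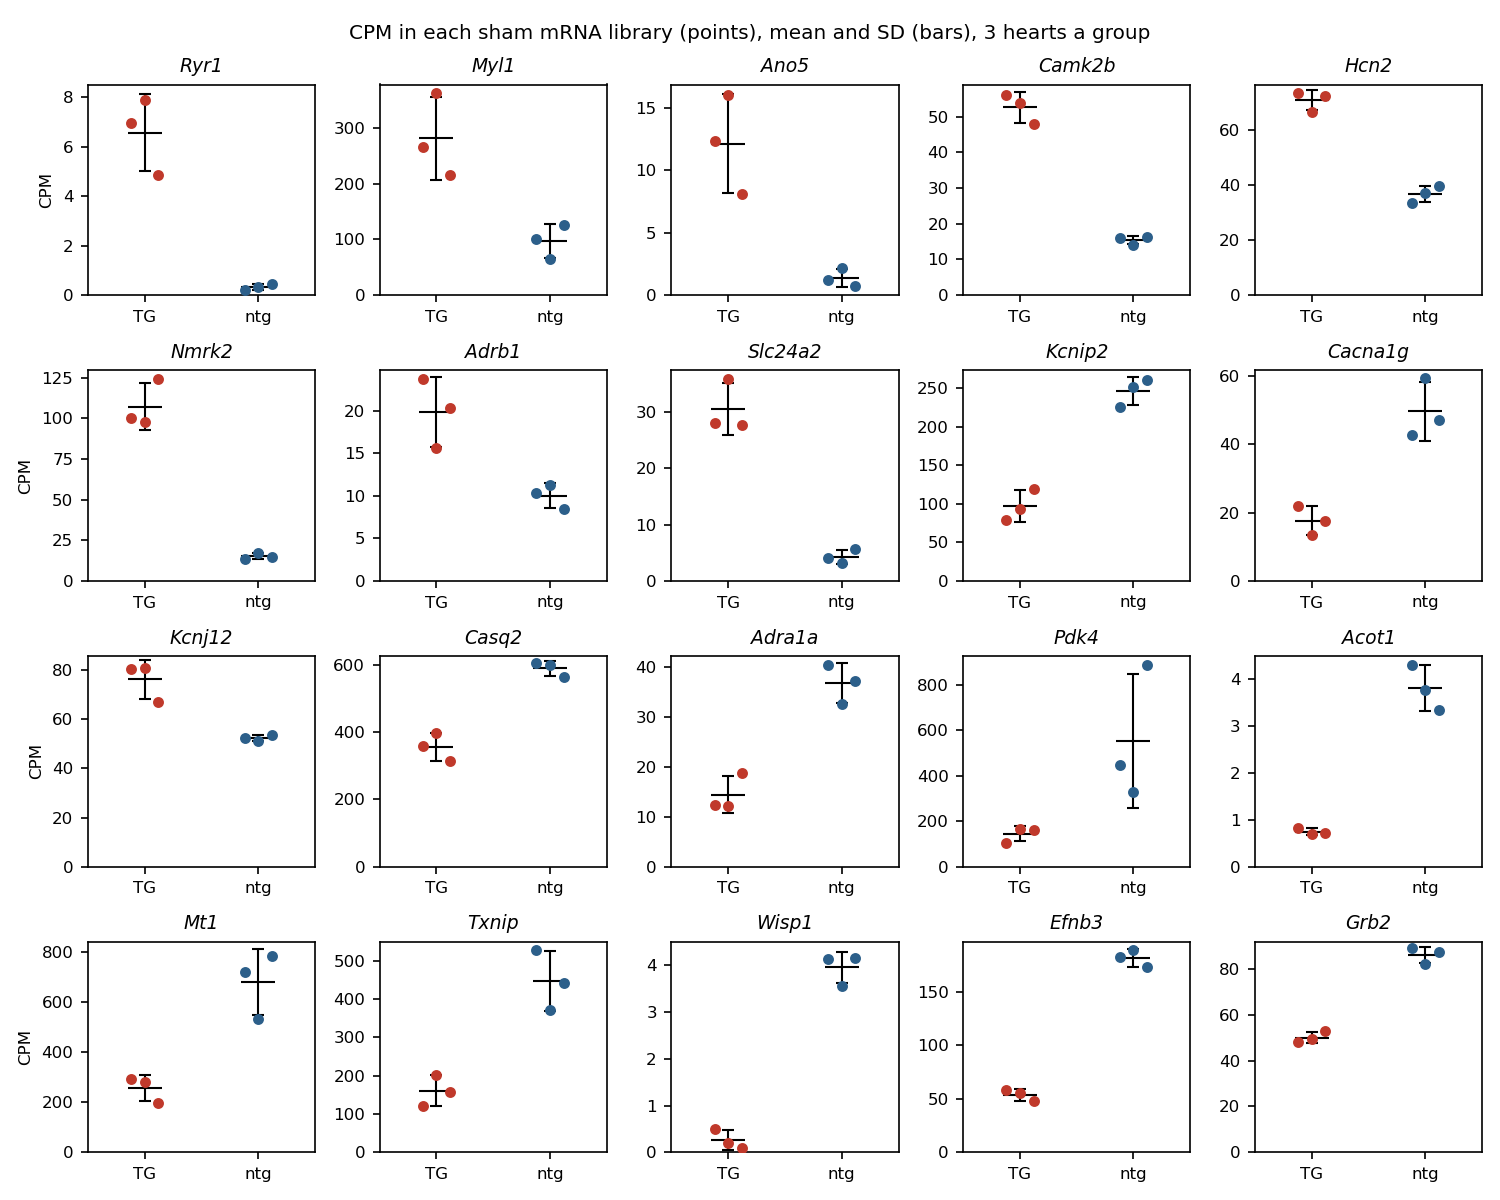
CPM of 20 genes in each sham mRNA library (points) with the mean and SD of 3 hearts a group (bars), TG on the left and ntg on the right of each panel, each panel with its own axis from 0. In all 20 panels the 3 TG hearts do not overlap the 3 ntg hearts; Pdk4 shows the widest spread within ntg hearts, at 447, 328 and 888 CPM.

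The receptors through which catecholamines act did not move together. Adrb1, the beta-1 adrenergic receptor that raises heart rate and force, stood at 23.8, 15.6 and 20.3 CPM in TG hearts against 10.4, 11.3 and 8.41 CPM in ntg hearts. The lowest TG heart lay above the highest ntg heart (log2 fold change 1.00, SE 0.2, adjusted p = 0.00127). Adra1a, the alpha-1A receptor of muscle growth and contraction, went the other way, at 12.4, 12.2 and 18.7 CPM in TG hearts against 40.4, 32.6 and 37.2 CPM in ntg hearts (-1.36, SE 0.15, adjusted p = 5.72e-07), while the alpha-1D receptor gene Adra1d rose by 1.06 (SE 0.22, adjusted p = 0.0012). Adora1, the adenosine receptor that slows the heart, fell by 1.17 (SE 0.17, adjusted p = 2.33e-05), and Drd2, a dopamine receptor, rose by 1.39 (SE 0.35, adjusted p = 0.00822). Downstream, 11 of 58 cyclic AMP and phosphodiesterase genes were lower and 4 higher, 25.9% called beside 18.6% of all genes. Of the 11 lower genes 1 is marked as an adipocyte gene. Adcy5, the main adenylyl cyclase of the heart, rose by 0.45 (SE 0.11, adjusted p = 0.0066). Among 26 peptide receptor genes 2 were lower and 2 higher, 15.4% called. The endothelin A receptor gene Ednra, one of the lower, was at 59, 69.8 and 40.9 CPM in TG hearts against 83.4, 104 and 92.4 CPM in ntg hearts (-0.72, SE 0.14, adjusted p = 0.000719). The calls of Drd2 and Ednra were lost with the adipocyte covariate (adjusted p = 0.0612 and 0.0608).

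Receptor tyrosine kinases, which carry growth factor signals, held only lower calls, 12 of 47 tested (25.5%, beside 9.41% lower over all genes). Among the 12 is Ntrk2, which is marked as an adipocyte gene. Ror1, a receptor of Wnt5a, stood at 3.8, 5.07 and 5.93 CPM in TG hearts against 14.4, 12.8 and 10.1 CPM in ntg hearts (log2 fold change -1.35, SE 0.17, adjusted p = 5.75e-06). Ntrk3, the receptor of neurotrophin-3, was at 0.899 to 1.41 CPM in TG and 2.7 to 5.95 CPM in ntg hearts (-1.87, SE 0.53, adjusted p = 0.0167), with an adjusted p of 0.0913 without ntg 1, and its call was also lost without TG 1, without TG 3 and with the adipocyte covariate. Pdgfra, a receptor of fibroblasts, fell by 0.45 (SE 0.12, adjusted p = 0.0103) beside the fibroblast markers given above. It was not called without TG 3 or with that covariate. Among cytokine and TNF receptors 8 of 65 were lower and 4 higher, 18.5% called beside 18.6% of all genes. Prlr, the prolactin receptor, stood at 11.3, 15.4 and 12.1 CPM in TG hearts against 5.37, 7.55 and 4.16 CPM in ntg hearts (1.20, SE 0.18, adjusted p = 4.48e-05). Tnfrsf12a, the receptor of the cytokine TWEAK, was at 82.3, 76.8 and 86 CPM in TG hearts and 37.8, 51.9 and 28.7 CPM in ntg hearts (1.05, SE 0.23, adjusted p = 0.00315; 0.0671 with the covariate). Tgfbr3, betaglycan, a coreceptor of TGF beta, fell by 0.72 (SE 0.1, adjusted p = 3.27e-05). Rtn4r, the Nogo receptor, which restrains the growth of axons, was at 3.31 to 4.9 CPM in TG and 17 to 18.8 CPM in ntg hearts (-2.01, SE 0.24).

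Inside the cell, the lists of genes that pass growth signals on held more lower than higher calls, with medians near that of all genes. Of 47 Ras and MAP kinase genes 10 were lower and 4 higher (29.8% called, median log2 fold change -0.01). Of 32 insulin, IGF and PI3 kinase genes 6 were lower and 1 higher (21.9% called, median -0.07). Over all genes 18.6% were called, with a median of -0.01. Grb2, the adaptor between receptor kinases and Ras, was at 48, 49.4 and 52.7 CPM in TG hearts and 88.8, 82.1 and 87.4 CPM in ntg hearts (log2 fold change -0.78, SE 0.07). Akt1, a kinase of insulin signalling, fell by 0.56 (SE 0.07, adjusted p = 7.39e-06), without overlap between the groups. Dusp8, a phosphatase that switches MAP kinases off, rose by 0.74 (SE 0.13, adjusted p = 0.000196). Of the 18 genes listed as reported targets of miR-378 from studies of several cell types, 3 were lower and 0 higher, with a median of -0.14. That is 16.7% called, beside 18.6% of all genes, and Grb2 and Npnt, a matrix protein, were among the 3. Npnt was called at -1.17 (SE 0.41, adjusted p = 0.0494) with overlapping groups, and its adjusted p was 0.203 without ntg 1. It was likewise not called without ntg 2, TG 1, TG 2 or TG 3, with the adipocyte covariate, with voom, without a filter on low counts, or with marked genes left out. The other 15 ranged from Pde1b, a phosphodiesterase, at -0.28 (adjusted p = 0.432) to Sufu, a Hedgehog inhibitor, at 0.36 (adjusted p = 0.0788), with Vegfa, the vessel growth factor, at 0.22 (adjusted p = 0.318).

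Of 47 tested fatty acid oxidation genes 16 were lower in TG hearts, 4 were higher and 27 were not called, with a median log2 fold change of -0.23. That is 42.6% called, beside 18.6% of all genes, and none of the 47 carries the adipocyte mark. Acot1, a thioesterase that PPAR alpha induces, stood at 0.826, 0.704 and 0.719 CPM in TG hearts against 4.32, 3.78 and 3.34 CPM in ntg hearts (-2.32, SE 0.4, adjusted p = 0.000256). Pdk4, which keeps pyruvate out of the citric acid cycle, was at 106, 165 and 161 CPM in TG hearts and 447, 328 and 888 CPM in ntg hearts (-1.95, SE 0.57, adjusted p = 0.0249). Its groups did not overlap, but the ntg hearts spread widely, the value without ntg 3 was -1.43 (adjusted p = 0.123), and the call was also lost without TG 1, without TG 3, with either covariate, with the replicate block and in the 6 sham libraries alone. Ucp3, the mitochondrial carrier that follows fatty acid supply, behaved likewise at -1.93 (SE 0.56, adjusted p = 0.0231) and -1.47 (adjusted p = 0.116) without ntg 3, and lost its call under the same alternatives. Acsl6, an acyl-CoA synthetase, went up, at 32, 30.4 and 34 CPM in TG hearts against 13.7, 15 and 12.7 CPM in ntg hearts (1.22, SE 0.13, adjusted p = 5.72e-07).

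Of 33 lipid droplet and lipid synthesis genes 16 were lower and 0 higher (48.5% called, median -0.34), and 4 of the 16 are marked as adipocyte genes. Over all tested genes 9.41% were called lower. Elovl6, which lengthens fatty acids and is not marked, stood at 1.43, 1.83 and 0.719 CPM in TG hearts against 7.87, 7.55 and 13 CPM in ntg hearts (-2.80, SE 0.34, adjusted p = 3.31e-06). Fat cells make this enzyme as well, and with the adipocyte covariate it was at -1.97 (adjusted p = 0.00667). Of 25 cholesterol synthesis genes 3 were lower and 1 higher, 16% called beside 18.6% of all genes. Pmvk, a kinase of the mevalonate pathway, was the 1 higher (0.52, SE 0.12, adjusted p = 0.00478), and among the lower were Lss, lanosterol synthase (-1.06, SE 0.2, adjusted p = 0.000569), and Insig1, the sterol sensor of that pathway (-0.85, SE 0.18, adjusted p = 0.00227). Bdh1, an enzyme of ketone body use, rose by 0.73 (SE 0.14, adjusted p = 0.000877) to 531, 542 and 380 CPM in TG hearts against 247, 300 and 325 CPM in ntg hearts. Of 50 genes of glycolysis and glucose use 6 were lower and 4 higher (20% called). Pfkfb3, which makes the activator of phosphofructokinase, fell by 1.07 (SE 0.12, adjusted p = 7.27e-07), Tkt, transketolase of the pentose phosphate pathway, fell by 0.93 (SE 0.14, adjusted p = 3.27e-05), and Slc2a12, a glucose transporter of muscle and fat, rose by 0.85 (SE 0.13, adjusted p = 3.79e-05).

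Metallothioneins, small proteins that bind zinc and copper and rise with metals, glucocorticoids and stress, were lower in TG hearts. Mt1 stood at 292, 283 and 199 CPM in TG hearts against 723, 532 and 785 CPM in ntg hearts, a fold change of -1.40 on the log2 scale (SE 0.18, adjusted p = 9.18e-06). Mt2 stood at 25, 20 and 10.3 CPM in TG hearts against 98.6, 32.4 and 142 CPM in ntg hearts, so that ntg 2 came closest to the TG hearts (-2.29, SE 0.46, adjusted p = 0.00243). In the 6 sham libraries alone Mt2 was not called. The genes are neighbours on chromosome 8. The 250 bases before their starts, on the plus strand of GRCm38.p6 in RefSeq, are shown since both genes fell and the region is known for short elements with the core TGC, a base, C, a base, C that the metal-sensing factor MTF-1 binds; capitals mark matches to TGCNCNC on either strand.
Mt1, chr8:94178839-94179088: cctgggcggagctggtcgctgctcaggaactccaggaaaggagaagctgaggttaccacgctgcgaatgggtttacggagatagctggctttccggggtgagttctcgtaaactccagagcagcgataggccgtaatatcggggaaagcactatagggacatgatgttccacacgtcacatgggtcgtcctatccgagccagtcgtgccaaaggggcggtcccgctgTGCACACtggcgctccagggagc
Mt2, chr8:94172368-94172617: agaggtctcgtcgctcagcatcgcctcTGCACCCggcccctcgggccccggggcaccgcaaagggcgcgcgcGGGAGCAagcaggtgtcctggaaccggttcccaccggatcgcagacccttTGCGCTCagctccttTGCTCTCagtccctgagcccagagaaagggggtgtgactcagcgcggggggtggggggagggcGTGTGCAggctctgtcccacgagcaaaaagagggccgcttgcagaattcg
The window of Mt2 holds 5 matches, a number reached by 0.344% of 32851 promoter windows of the same length, and that of Mt1 holds 1, and 44.4% of windows hold at least 1. Each window ends at the annotated start of its gene, and bases beyond it were not searched. The numbers therefore need not cover all such elements of either promoter. The matches are a description of the sequence and were not tied to the change in level.

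Txnip, an inhibitor of thioredoxin that follows glucose, stood at 122, 203 and 157 CPM in TG hearts against 529, 371 and 442 CPM in ntg hearts (log2 fold change -1.48, SE 0.28, adjusted p = 0.00135; 0.109 with the adipocyte covariate). Together with the metallothioneins it accounts for 3 of the 6 lower calls among 39 genes of oxidative stress and glutathione. Of the 39, 23.1% were called, beside 18.6% of all genes. The 3 higher calls included Prdx6, a peroxiredoxin, at 278, 293 and 253 CPM in TG hearts against 169, 179 and 162 CPM in ntg hearts (0.69, SE 0.09, adjusted p = 4.7e-06).

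Chaperones and the proteasome held more higher than lower calls. Of 29 heat shock genes 8 were higher and 3 lower, 37.9% called beside 18.6% of all genes. All 3 lower ones, Hspb6, Hspb7 and Hspb3, are small heat shock proteins of muscle. Hspb7 stood at 3150, 3690 and 2810 CPM in TG hearts against 5100, 5600 and 5680 CPM in ntg hearts (log2 fold change -0.76, SE 0.12, adjusted p = 0.000105). Hspb3, at -0.60 (SE 0.18, adjusted p = 0.0179), was not called without ntg 1, ntg 2 or TG 1. Cryab, the small heat shock protein that binds desmin filaments, went the other way, with the largest gain in TPM among called genes without the adipocyte mark. Its mean was 12200 TPM in TG hearts against 7000 TPM in ntg hearts (0.69, SE 0.15, adjusted p = 0.0024, and 0.0639 with the adipocyte covariate). Of 43 proteasome genes 8 were higher and 3 lower (25.6% called, median 0.20). Psmb10, a subunit of the immunoproteasome, rose by 0.65 (SE 0.1, adjusted p = 8e-05), while Psma1, a subunit of the core particle, fell by 0.76 (SE 0.11, adjusted p = 3.36e-05) and Psme1, an activator subunit, fell by 0.74 (SE 0.09, adjusted p = 2.6e-06). Of 80 cytosolic ribosomal protein genes 13 were lower and 1 higher (17.5% called, median -0.22), and 40 lay lower in every TG than in every ntg heart, a gap found in 17.6% of all tested genes. The 1 higher, Rps4y2 (SE 0.23, adjusted p = 6.98e-05), has near copies elsewhere in the genome, and since reads with several alignments were not counted, levels within this family and among histones are uncertain. Eef2k, the kinase that slows translation elongation, fell by 0.89 (SE 0.09, adjusted p = 1.81e-07). Of 26 histone genes 8 were higher and 0 lower (30.8% called, median 0.41), and 1 of the 8 is marked as an adipocyte gene. Most histone messages lack a poly(A) tail, so a library of polyadenylated RNA holds only a part of them.

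Of the transcription factor genes 18.4% were called, beside 18.6% of all genes. Among 51 factors of heart development 7 were higher and 3 lower. Tbx15, a T-box factor of skeleton and glycolytic muscle, stood at 4.9, 3.94 and 2.25 CPM in TG hearts against 0.576, 0.54 and 1.18 CPM in ntg hearts (log2 fold change 2.27, SE 0.43, adjusted p = 0.000732). Irx5, which shapes the gradient of potassium currents across the ventricular wall, was at 5.23, 5.21 and 5.12 CPM in TG hearts and 2.49, 3.24 and 1.63 CPM in ntg hearts (1.10, SE 0.26, adjusted p = 0.00419; 0.0664 with the adipocyte covariate). Nkx2-5, a founding factor of the heart, was called at 0.97 (SE 0.32, adjusted p = 0.0427), but was not called without any of ntg 1, ntg 2, ntg 3, TG 1 or TG 3, with adjusted p = 0.15 at the highest, with either covariate, with voom or without a filter on low counts. Etv5 and Etv1 are ETS factors, of which Etv5 rose by 0.76 (SE 0.16, adjusted p = 0.00142) and Etv1 rose by 0.72 (SE 0.17, adjusted p = 0.00534; 0.0573 with the adipocyte covariate).

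Kruppel-like and related zinc finger factors held 7 lower and 1 higher calls of 43. That is 18.6% called, the same share as over all tested genes (18.6%). Klf13 stood at 75.9, 69.9 and 77.5 CPM in TG hearts against 110, 95.9 and 113 CPM in ntg hearts (log2 fold change -0.51, SE 0.1, adjusted p = 0.00106), and Klf11 fell by 0.68 (SE 0.15, adjusted p = 0.00193). Klf10, an early target of TGF beta, fell by 1.16 (SE 0.25, adjusted p = 0.00284) and by 0.75 without ntg 1. Foxo1, a forkhead factor that insulin restrains, was at 25.7, 26.2 and 22.7 CPM in TG hearts and 46.4, 33.5 and 41.1 CPM in ntg hearts (-0.70, SE 0.13, adjusted p = 0.000399). Hif3a, a hypoxia-inducible factor subunit, fell by 1.69 (SE 0.41, adjusted p = 0.00571). With the adipocyte covariate Klf10, Klf11, Foxo1 and Hif3a were not called, and in the 6 sham libraries alone Klf10 was not called. Of 39 nuclear receptor genes 6 were lower, among them Pparg, the marked fat cell factor, and 5 were higher (28.2% called). Among 83 chromatin and Mediator genes 10 were higher and 4 lower, 16.9% called beside 18.6% of all genes. The deacetylase gene Hdac3 was at 30.2, 27.6 and 24.7 CPM in TG hearts against 48.1, 50.6 and 43.4 CPM in ntg hearts (-0.78, SE 0.1, adjusted p = 9.09e-06). Hdac11 was at 30.9, 28 and 30.6 CPM in TG hearts against 20.1, 20.4 and 20.6 CPM in ntg hearts (0.55, SE 0.12, adjusted p = 0.00224). Ccnd2, cyclin D2, one of 3 higher among 39 cell cycle genes (7.69% called), rose by 0.78 (SE 0.14, adjusted p = 0.000325).

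Of the genes of secreted proteins 14.8% were called, beside 18.6% of all genes, 51 of them lower and 15 higher. Of 92 matrix enzymes and inhibitors 14 were lower and 1 higher, and of 78 matrix glycoproteins 11 were lower and 1 higher, while among 38 collagens 1 was lower and 2 higher. Wisp1, a matricellular protein of the Wnt pathway, stood at 0.495, 0.211 and 0.0899 CPM in TG hearts against 4.13, 3.56 and 4.16 CPM in ntg hearts (log2 fold change -3.72, SE 0.43). Col4a5, a basement membrane collagen, rose by 0.67 (SE 0.14, adjusted p = 0.00136; 0.0516 with the adipocyte covariate). Efnb3, an ephrin that signals between touching cells, was at 58.2, 55.7 and 47.8 CPM in TG hearts and 183, 189 and 173 CPM in ntg hearts, a wide gap (-1.75, SE 0.13, adjusted p = 4.07e-09), and Efna5 fell by 0.59 (SE 0.11, adjusted p = 0.000566). Twsg1, which binds bone morphogenetic proteins, stood at 52.1, 49.8 and 38.5 CPM in TG hearts against 81.8, 89 and 81.5 CPM in ntg hearts (-0.84, SE 0.11, adjusted p = 4.34e-06). Fgf16, a growth factor that cardiomyocytes make, fell by 0.91 (SE 0.21, adjusted p = 0.00438).

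Higher were Pdgfc, a growth factor of mesenchymal cells, at 6.61, 4.08 and 2.88 CPM in TG hearts against 1.92, 1.73 and 1.72 CPM in ntg hearts (log2 fold change 1.37, SE 0.28, adjusted p = 0.0012), and Ttr, the carrier of thyroid hormone and retinol, at 3.63, 3.87 and 2.52 CPM in TG hearts against 0.576, 0.324 and 1.18 CPM in ntg hearts (2.23, SE 0.4, adjusted p = 0.000383). Thbs4, a thrombospondin of the stressed heart, was at 32.9, 31.5 and 23.5 CPM in TG hearts and 12.5, 10 and 19.3 CPM in ntg hearts (1.07, SE 0.28, adjusted p = 0.0126). The adjusted p was 0.0592 without ntg 2, and the call was lost without ntg 1 and with the adipocyte covariate too. Of 49 hormones, peptides and adipokines 9 were lower, 5 of them marked as adipocyte genes, and 2 were higher. Ccl11, the chemokine eotaxin, was at 1.32 to 2.34 CPM in TG and 5.07 to 7 CPM in ntg hearts (-1.67, SE 0.28, adjusted p = 0.00022). Of 22 complement and acute phase genes 7 were lower and 0 higher, and 1 of the 7 is marked as an adipocyte gene. Over all tested genes 9.41% were called lower and 9.17% higher.

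**Figure D5:**
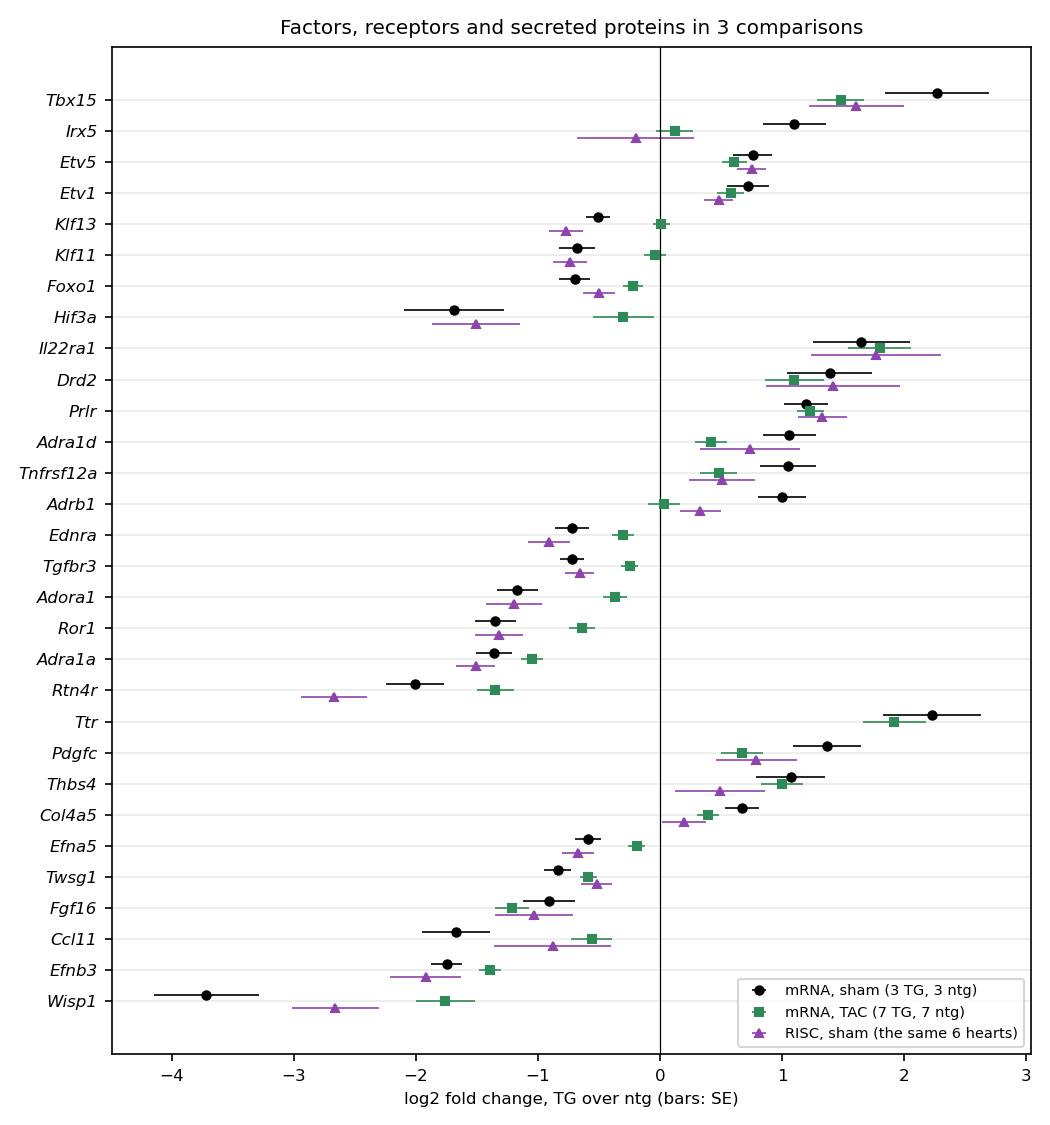
Log2 fold change of TG over ntg (points) with its SE (bars) for 30 genes of transcription factors, receptors and secreted proteins, in mRNA of sham hearts (black), mRNA of TAC hearts (green) and RISC of the same sham hearts (purple); Ttr was not tested in RISC. Prlr and Adra1a lie on the same side of 0 in all 3; Irx5 and Adrb1 lie near 0 in TAC mRNA, at 0.12 and 0.03.

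The same genes were read in the TAC hearts, which are other mice, and in the RISC libraries, which come from the same sham hearts and so share their source. Over all tested genes 25.3% were called between TG and ntg in TAC mRNA and 5.81% in sham RISC. Prlr was higher by nearly the same amount in each, at 1.23 (SE 0.11, adjusted p = 1.33e-08) in TAC mRNA and 1.33 (SE 0.2, adjusted p = 3.71e-05) in sham RISC. Adra1a was at -1.05 (SE 0.09, adjusted p = 1.2e-08) in TAC mRNA and -1.51 (SE 0.16, adjusted p = 2.62e-08) in sham RISC, and Efnb3 at -1.39 (SE 0.09) and -1.92 (SE 0.29). Tbx15 was at 1.48 (SE 0.19, adjusted p = 7.09e-06) in TAC mRNA and 1.61 (SE 0.39, adjusted p = 0.00907) in sham RISC. Adrb1 was at 0.03 (SE 0.13, adjusted p = 0.892) in TAC mRNA and 0.33 (SE 0.17, adjusted p = 0.305) in sham RISC, and the difference of its transgene effect between TAC and sham had an adjusted p of 0.124. Irx5 was at 0.12 (SE 0.15, adjusted p = 0.601) in TAC mRNA, with an adjusted p of 0.227 for that difference. Klf13 was at 0.01 (SE 0.07, adjusted p = 0.958) in TAC mRNA but at -0.77 (SE 0.14, adjusted p = 0.000584) in sham RISC, and the difference between TAC and sham mRNA had an adjusted p of 0.0981. Hif3a was at -0.30 (SE 0.25, adjusted p = 0.413) in TAC mRNA and -1.51 (SE 0.36, adjusted p = 0.00771) in sham RISC, and Acta2 at -0.17 (SE 0.14, adjusted p = 0.402) in TAC mRNA and -0.62 in sham RISC (SE 0.31, adjusted p = 0.296). Of the genes called in sham hearts 1260 of 1297 higher and 1264 of 1330 lower ones had the same sign in TAC mRNA. Fewer, 925 of the higher and 779 of the lower ones, were also called there in that direction. The share of same signs over all tested genes was not counted, so the sign counts stand without that background. TAC and sham hearts also differ in the sex-linked RNA given above, Xist standing at 1.03 to 3.48 CPM in TAC hearts, so a difference between them cannot be told apart from that.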

How the data were processed

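Polyadenylated RNA was sequenced from frozen heart slices as single-end libraries that do not keep the strand, per the labels' protocols, so overlapping and antisense genes cannot be told apart. Per the submitters' processing notes, the build was mm10 and the tools were TopHat2 2.0.10, TopHat, Bowtie2, HTSeq, DESeq and edgeR. The deposited values are raw counts per gene symbol, 23420 symbols a library. The 5 summary rows of each file were left out; they hold 10.2% to 12.8% of the reads in the files of the sham libraries. The ribosomal precursor Rn45s took 5.41% to 9.05% of gene counts. Positions and union exon lengths come from the authors' deposited mm10 gene models.

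Counts were analysed in R 4.3.3 (DESeq2 1.42.0, limma 3.58.1, edgeR 4.0.16): filterByExpr, TMM scaling, a robust quasi-likelihood fit of all 20 mRNA libraries in 4 groups (12.9% biological coefficient of variation), and the contrast of TG sham with ntg sham. CPM are counts scaled by TMM library sizes. TPM are counts divided by exon length and brought to the same total in each library, without TMM factors. Fold changes come from the TMM-scaled fit, so ratios of mean TPM need not equal them. The SE is the log2 fold change divided by the square root of F. The scripts were tested on simulated data. Genes of 83 lists were counted. The comparison, the lists and their members were chosen with earlier results of these data known.

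Genes were named by a rule: the 8 called genes with the largest folds in each direction and the 6 with the largest TPM differences (mean of at least 1 CPM for folds, no adipocyte mark), up to 3 called genes in each direction per list, the reported miR-378 targets and the markers of cell types. Not all of them are printed. Adjusted p values under 0.05 were called. Alternatives were DESeq2, other scaling, other filters, voom, the 6 sham libraries alone, covariates for the adipocyte level and, added after the data were seen, the atrial level, a replicate block, and leaving out each library.

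Results for some genes are not reported here.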

Additional observations from a re-analysis of the deposited data

Results flagged for a closer look

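For Elovl6 and Plin4 the transgene effect in sham hearts differed from that in TAC hearts by the interaction test of the same edgeR fit. Elovl6, a fatty acid elongase, had a log2 fold change of -2.80 in sham hearts and of -0.53 in TAC hearts, a difference of 2.27 (adjusted p = 0.0258). Plin4, a lipid droplet protein marked as an adipocyte gene, had one of -1.53 in sham hearts and of -0.40 in TAC hearts, a difference of 1.13 (adjusted p = 0.00127). The adipocyte level stood at 2.27 in TG and 5.34 in ntg sham hearts, and at 2.13 in TG and 2.62 in ntg TAC hearts. Its part in both differences was not tested. Sham and TAC hearts also differ in sex-linked RNA, with Xist at 117 to 142 CPM in sham and 1.03 to 3.48 CPM in TAC hearts. A difference by surgery therefore cannot be told apart from that one. Over all 14141 genes the interaction called 12, with 1445 at an unadjusted p under 0.05.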

How the results depend on the processing

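The count of called genes, 2627 (1297 higher and 1330 lower), moved by more than 1.5 times under 2 alternatives, and the number higher also without ntg 1. With the adipocyte level as a covariate 952 genes were called, 483 higher and 469 lower, of which 893 were called in the same direction without it. A test against a change of at least 1.5-fold called 222, 123 higher and 99 lower. Leaving out one library called 1781 to 2578 genes, 839 to 1275 higher and 942 to 1303 lower; the lowest counts came without ntg 1. The other alternatives called 2200 (6 sham libraries only) to 2763 (DESeq2). With the atrial level as a covariate, added after the data were seen, 2444 were called. Of 333 called genes named by the rule, 126 were called under every alternative computed gene by gene, which leaves out the test against 1.5-fold and, for the 10 genes that make up the adipocyte level, that covariate; 53 lost their call with the adipocyte covariate alone, and 151 lost it without at least one library. With the adipocyte covariate 8 called genes changed sign, among them Acvr1c (0.09), Otop1 (0.87) and Pck1 (1.10), and Adipoq (0.86), Cidec (0.84) and Retn (0.47), which enter that level themselves. The labels do not state that replicate numbers pair the hearts across genotypes. Residuals of same-numbered libraries correlated at -0.057 to -0.008 over 10065 genes, and those of differently numbered ones at -0.158 to 0.201. With 3 libraries a group these values cannot exclude a pairing. The replicate block called 2613 genes, 1295 higher and 1318 lower. Depth of 9980462 to 18063408 counts sets the precision of scarce genes; under 1 TPM 8.5% were called, against 24% above 10 TPM, and depth and the larger spread of scarce genes were not separated.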
